A study of Mus musculus with 24 samples.

Results

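The let-7 3p strands are the passenger arms of the let-7 microRNA (miRNA) hairpins, the strands that are usually discarded when the 5p arm is kept. The 10 members, mmu-let-7a-1-3p, mmu-let-7b-3p, mmu-let-7c-1-3p, mmu-let-7c-2-3p, mmu-let-7d-3p, mmu-let-7e-3p, mmu-let-7f-1-3p, mmu-let-7f-2-3p, mmu-let-7g-3p and mmu-let-7i-3p (the species prefix mmu is left off from here on), were taken by name from the 1978 mature mouse miRNAs of a raw count table, and each was also set against the 5p strand of the same name, of which there are 8. Small RNA was sequenced from germ cells of male mice that carry a linked deletion at the Argonaute genes Ago4, Ago1 and Ago3, written Ago413, to ask how miRNA levels change when these proteins are lost. Pachytene/diplotene spermatocytes (SP, cells in the first meiotic prophase) and round spermatids (RS, the haploid cells that follow meiosis) were enriched on a BSA gradient, each from Ago413+/+, Ago413+/- and Ago413-/- testes. There were 4 libraries in each of the 6 groups and 24 in all. All groups were C57BL/6J mice of 10 to 15 weeks, and the deletion is constitutive, removing all of Ago1 and parts of Ago3 and Ago4 and leaving Ago2 in place. Each cell suspension pooled the testes of 2 to 5 mice, and fractions with more than 70% of the wanted cells were combined. The paper gives a higher purity range for the round spermatid fractions than for the spermatocyte fractions. The labels do not say that the libraries of a group came from separate pools, so p-values measure the spread between these libraries, part of which may be technical.

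A miRNA gene is transcribed as a long primary RNA, cut by Drosha to a hairpin and by Dicer to a short duplex, and an Argonaute protein keeps one strand of that duplex and releases the other. Strand choice depends on the stability of the duplex ends and on the first base, with U preferred in Argonaute. The let-7 5p strands, one of the most conserved miRNA families, hold back growth and pluripotency genes in differentiated cells, while the 3p strands are present at low levels in most tissues and have no common role.

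The 3p strands differ from one another in their seeds, the bases that pair with a target, where the 5p strands do not. All 10 members were matched to RefSeq records of the build GRCm38.p6. The mature 3p sequences are given 5′ to 3′, with the seed, bases 2 to 8, in capitals.
let-7d-3p: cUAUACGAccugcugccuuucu
let-7a-1-3p: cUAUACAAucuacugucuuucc
let-7c-2-3p: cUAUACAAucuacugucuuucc
let-7b-3p: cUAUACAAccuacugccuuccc
let-7f-1-3p: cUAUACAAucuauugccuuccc
let-7f-2-3p: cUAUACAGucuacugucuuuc
let-7e-3p: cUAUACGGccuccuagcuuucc
let-7c-1-3p: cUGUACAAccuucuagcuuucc
let-7i-3p: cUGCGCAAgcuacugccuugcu
let-7g-3p: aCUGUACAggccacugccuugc

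The 10 strands carried 7 different seeds. UAUACAA was shared by let-7a-1-3p, let-7b-3p, let-7c-2-3p and let-7f-1-3p, and among the 1679 mature names of the reference table only miR-98-3p also had it. In contrast, the 8 5p strands shared the seed GAGGUAG. For the hairpins described most here these are let-7a-5p, let-7b-5p and let-7d-5p.
let-7a-5p: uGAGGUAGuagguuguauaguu
let-7b-5p: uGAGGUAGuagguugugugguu
let-7d-5p: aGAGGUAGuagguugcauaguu

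Of the 5p strands 7 of 8 began with U, the exception being let-7d-5p, whereas 9 of 10 of the 3p strands began with C. Counted from the 5′ end of let-7a-1-3p, let-7b-3p differed from it at U9C, U16C and U20C, all outside the seed, and let-7d-3p at A7G, U9C, A12G, U16C and C22U. Of the members 9 were 22 nucleotides long, counting let-7g-3p, which differed from let-7a-1-3p at 17 positions, and let-7f-2-3p was 21 nucleotides long.

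let-7a-1-3p and let-7c-2-3p are the same 22 bases made from different genes. Their counts were identical in 24 of 24 libraries, so the reads cannot be assigned to either gene, and they are treated below as 1 strand, let-7a-1/c-2-3p. There are then 9 distinct strands. A ratio of this strand to let-7a-5p or let-7c-5p joins 3p reads of 2 genes with 5p reads that also come from further copies, so it belongs to the names and not to 1 hairpin.

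The hairpins lie at 7 places in the genome. let-7d-3p (chr13:48536024-48536045, minus strand), let-7f-1-3p (chr13:48537833-48537854, minus strand) and let-7a-1-3p (chr13:48538188-48538209, minus strand) lie in exons of the long non-coding RNA 6720427I07Rik. let-7c-2-3p (chr15:85706664-85706685, plus strand) and let-7b-3p (chr15:85707379-85707400, plus strand) lie together in exons of the non-coding transcript Lncppara. let-7c-1-3p (chr16:77599717-77599738, plus strand) is intronic in Mir99ahg, let-7e-3p (chr17:17830411-17830432, plus strand) in Spaca6, let-7f-2-3p (chrX:151912403-151912423, plus strand) in Huwe1, and let-7g-3p (chr9:106178902-106178923, plus strand) in Wdr82. let-7i-3p (chr10:122985642-122985663, minus strand) overlaps an exon of the transcribed pseudogene D630033A02Rik. The hairpins of let-7d, the most abundant member, and let-7b, the member called between genotypes both by level and by ratio, show the position of both arms, given here in capitals.
Mirlet7d: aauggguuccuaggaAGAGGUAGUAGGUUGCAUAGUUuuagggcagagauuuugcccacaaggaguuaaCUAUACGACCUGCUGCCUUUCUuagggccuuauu
Mirlet7b: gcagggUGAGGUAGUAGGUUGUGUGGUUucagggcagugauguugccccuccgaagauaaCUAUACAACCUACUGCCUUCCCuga

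Mirlet7d is 103 bases long, with its arms at bases 16 to 37 and 70 to 91, and Mirlet7b is 85 bases long, with its arms at bases 7 to 28 and 61 to 82.

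Library totals ran from 182904 to 1072637 counts, with the lowest group median, 262790.5, in SP Ago413-/- libraries. Markers of meiotic and later germ cells (miR-34b, miR-34c, miR-449a, miR-881 and miR-871) were all detected and summed to between 163589 and 314218 CPM (counts scaled to 1e+06 per library after TMM normalization) in each library. Mature miRNA counts do not measure the Ago1, Ago3 or Ago4 transcripts, so the genotype labels could not be checked here. A pair of spermatocyte libraries stood apart, SP Ago413+/- replicate 4 and SP Ago413-/- replicate 2. In them miR-34c-5p was 31645 and 16100 CPM and let-7c-5p 22975 and 57035 CPM, against 47068 to 163412 CPM and 3188 to 14983 CPM in the 22 other libraries, and the main spermatocyte comparisons of Ago413-/- are therefore given with and without them.

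let-7 3p strands were rare beside their 5p strands, and one of them held most of the counts. Over all libraries the members summed to 8526 counts and the 5p strands to 1418884, so that 3p reads were 0.597% of both. let-7d-3p held 6222 of these counts (73.0%) and ranked 125th of the 1978 miRNAs by its sum. let-7a-1/c-2-3p held 1656 counts (19.4%). The other 7 distinct strands shared 648 counts, from 191 for let-7b-3p, 145 for let-7f-2-3p, 93 for let-7e-3p and 85 each for let-7f-1-3p and let-7i-3p down to 44 for let-7c-1-3p and 5 for let-7g-3p.

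**Figure D1:**
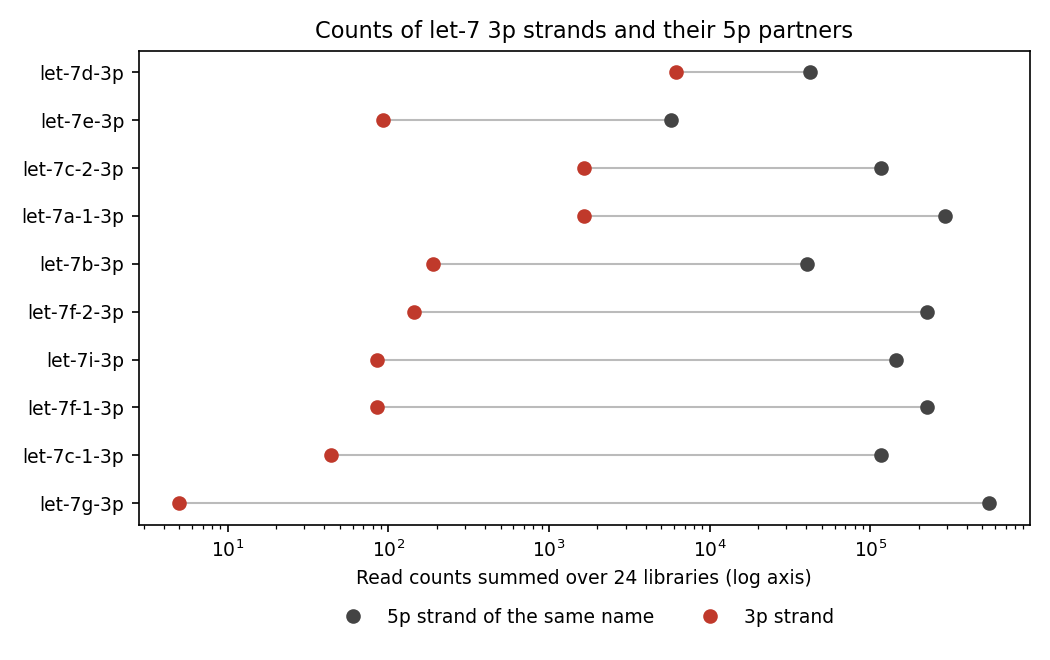
Summed counts of the 3p and 5p strand of each let-7 hairpin over 24 libraries, on a log axis. let-7d has the narrowest gap between its arms, with 6222 counts of the 3p strand and 42023 of the 5p strand, and let-7g the widest, with 5 and 551127.

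Abundance of a 3p strand did not follow that of its partner. let-7g-5p was the 5p strand with the most counts, 551127, and let-7g-3p had the fewest counts of all members, with 0 in 20 of 24 libraries. let-7g-3p had no count in 12 spermatocyte libraries, 0 of 229388 counts of both arms, which allows a share of up to 0.00131%. In round spermatids it had counts of 1, 2, 0 and 0 in Ago413+/+, 1, 0, 1 and 0 in Ago413+/-, and 0 in each Ago413-/- library, which is too few for any comparison.

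let-7d stood at the other end. Its 3p strand was 12.9% of the counts of both arms, or 1 for 6.75 of let-7d-5p. The share was 1.58% for let-7e, 0.471% for let-7b, 0.0645% for let-7f-2, 0.0586% for let-7i, 0.0378% for let-7f-1, 0.0374% for let-7c-1 and 0.000907% for let-7g. For let-7a-1/c-2-3p it was 0.563% against let-7a-5p alone, 1.39% against let-7c-5p alone and 0.403% against both together. The let-7f-1, let-7f-2 and let-7c-1 shares use a 5p strand that is made from more than one gene, so each is a lower limit for its own hairpin.

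let-7d-3p was measured with 71 to 1211 counts in every library. In SP Ago413+/+ it was 546, 623, 359 and 362 CPM in replicates 1 to 4, with a mean of 472 ± 133 (SD, n = 4). In SP Ago413+/- it was 225, 321, 296 and 823 CPM (mean 416 ± 274, SD, n = 4), and in SP Ago413-/- it was 320, 1285, 352 and 341 CPM (mean 575 ± 474, SD, n = 4). The high value of each of the last groups comes from the library that stood apart, and without it both groups lie below the lowest Ago413+/+ library.

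In round spermatids let-7d-3p was 775, 1106, 582 and 350 CPM in Ago413+/+ (mean 703 ± 320, SD, n = 4). It was 196, 332, 501 and 517 CPM in Ago413+/- (mean 387 ± 152, SD, n = 4) and 427, 303, 408 and 489 CPM in Ago413-/- (mean 407 ± 77.2, SD, n = 4). The order of the group means was RS Ago413+/+, SP Ago413-/-, SP Ago413+/+, SP Ago413+/-, RS Ago413-/- and RS Ago413+/-, and neighbours in this order differed by less than the SD of either group. In such pooled fractions, fewer cells of a type and less RNA per cell cannot be told apart.

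let-7a-1/c-2-3p was the steadiest member. It was 121, 166, 123 and 159 CPM in SP Ago413+/+ (mean 142 ± 23.4, SD, n = 4), with 119 to 188 CPM in SP Ago413+/- (mean 150 ± 29.3) and 115 to 153 CPM in SP Ago413-/- (mean 129 ± 16.9). In round spermatids the means were 139 ± 31.3, 134 ± 11.6 and 107 ± 30.9 CPM in Ago413+/+, Ago413+/- and Ago413-/- (SD, n = 4 each), with the lowest library, 64.0 CPM, in RS Ago413-/-. The coefficient of variation over 24 libraries was 19.6% for let-7a-1/c-2-3p and 54.3% for let-7d-3p, beside 57.1% for let-7a-5p, 98.8% for let-7c-5p and 56.5% for let-7d-5p. The 3p strand thus kept to a 2.94-fold range over libraries in which let-7c-5p spanned 17.9-fold. The upper part of the let-7c-5p span comes from both libraries that stood apart, and in the 22 others let-7c-5p was 3188 to 14983 CPM.

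**Figure D2:**
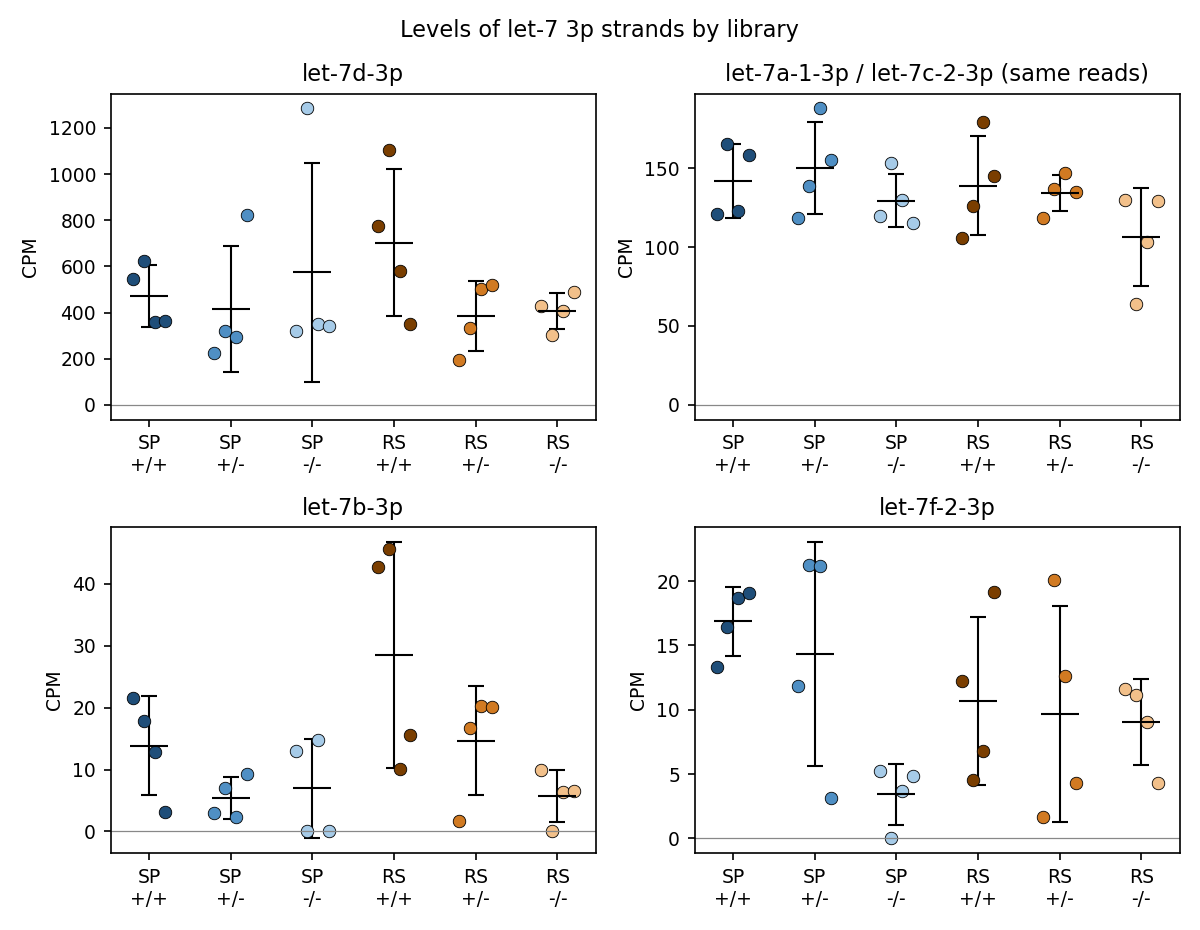
CPM of let-7 3p strands in each library of the 6 groups of cell type and genotype (points), with the group mean and SD (lines). let-7a-1/c-2-3p lies between 64.0 and 188 CPM throughout, while let-7d-3p reaches 823 and 1285 CPM in a single library of SP Ago413+/- and SP Ago413-/-.

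let-7b-3p was low, and lower in Ago413-/- than in Ago413+/+ round spermatids. Its counts were 21, 50, 3 and 13 in RS Ago413+/+, 1, 10, 8 and 14 in RS Ago413+/- and 6, 0, 5 and 3 in RS Ago413-/-. As CPM these were 42.7, 45.6, 10.2 and 15.6 in Ago413+/+ (mean 28.5 ± 18.3), 1.65, 16.7, 20.2 and 20.1 in Ago413+/- (mean 14.7 ± 8.83), and 9.97, 0, 6.45 and 6.46 in Ago413-/- (mean 5.72 ± 4.16, SD, n = 4 each). The Ago413+/+ and Ago413-/- libraries did not overlap, but the nearest, at 10.2 and 9.97 CPM, rest on 3 and 6 counts. In spermatocytes its counts were 13, 13, 11 and 1 in Ago413+/+, 1, 5, 1 and 3 in Ago413+/- and 5, 0, 4 and 0 in Ago413-/-, and the groups overlapped.

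let-7f-2-3p, made from an intron of the X-linked gene Huwe1, was low in SP Ago413-/-. Its counts were 8, 12, 16 and 6 in SP Ago413+/+, 4, 15, 9 and 1 in SP Ago413+/- and 2, 0, 1 and 1 in SP Ago413-/-. The means were 16.9 ± 2.65, 14.3 ± 8.70 and 3.43 ± 2.37 CPM (SD, n = 4 each), and the measured values of Ago413+/+ and Ago413-/- did not overlap. The Ago413-/- libraries hold 4 counts in all, and the library at 0 allows 16.4 CPM of its plain total, above the lowest Ago413+/+ library at 13.3 CPM, so that separation is not established at this depth. In round spermatids the groups overlapped, with means of 10.7 ± 6.51, 9.66 ± 8.36 and 9.03 ± 3.34 CPM in Ago413+/+, Ago413+/- and Ago413-/-.

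The other 4 strands with counts above let-7g-3p never passed 18 counts in a library. The highest library had 18 counts of let-7e-3p, 12 of let-7f-1-3p, 11 of let-7c-1-3p and 10 of let-7i-3p, and these strands had no count in 5, 5, 5 and 3 libraries. Group means were 4.83 to 9.26 CPM for let-7e-3p, 3.63 to 8.69 for let-7f-1-3p, 0.926 to 4.28 for let-7c-1-3p and 4.03 to 8.78 for let-7i-3p. At this depth no difference between groups was detectable for them.

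Levels were compared with edgeR's quasi-likelihood test over all miRNAs that reached 10 counts in 3 or more libraries of the fit. A miRNA was called at an adjusted p under 0.05 (Benjamini-Hochberg over all miRNAs tested) with a change of at least 1 on the log2 scale. In spermatocytes 4 distinct members passed the filter (let-7d-3p, let-7a-1/c-2-3p, let-7b-3p and let-7f-2-3p), let-7b-3p through Ago413+/+ libraries alone and let-7f-2-3p through 2 Ago413+/+ libraries and 1 Ago413+/- library. In round spermatids 3 passed (let-7d-3p, let-7a-1/c-2-3p and let-7b-3p), let-7b-3p through 3 Ago413+/+ and 2 Ago413+/- libraries. Passing only through the group where a strand was high favours a difference, so the number that passed says nothing about the family.

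In spermatocytes no member was called between Ago413-/- and Ago413+/+ by edgeR, against 4.46% of the 404 miRNAs tested. let-7f-2-3p, tested only because of its counts in the other genotypes, was at a log2 fold change of -2.05 (SE 0.70, unadjusted p = 0.0105, adjusted p = 0.0873 by edgeR), and at -1.79 (adjusted p = 0.0582) without both libraries that stood apart. let-7b-3p was at -0.80 (SE 0.75), let-7a-1/c-2-3p at -0.15 (SE 0.30) and let-7d-3p at 0.28 (SE 0.52, 95% interval -0.82 to 1.37), with adjusted p from 0.555 to 0.768. No marker of another cell type was called in this comparison. The direction for let-7d-3p rests on SP Ago413-/- replicate 2, since without that library it was -0.50, and without both libraries that stood apart -0.48.

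Between Ago413-/- and Ago413+/- spermatocytes no member was called (2.23% of all tested), with let-7f-2-3p at -1.95 (SE 0.72, edgeR adjusted p = 0.0991). Without SP Ago413+/- replicate 4 let-7f-2-3p was called, at -2.26 (edgeR adjusted p = 0.0370), where 57 of 399 miRNAs were called. Without both libraries that stood apart it was called at -2.04 (adjusted p = 0.0354), where 64 of 396 miRNAs were called. Between Ago413+/- and Ago413+/+ no member was called, nor any of the 404 miRNAs (0%; 13 had an unadjusted p under 0.05, and DESeq2 called 0).

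In round spermatids let-7b-3p was the one member called between Ago413-/- and Ago413+/+, where 16.2% of the 426 miRNAs tested were called and 8.69% were called lower. It fell by 2.10 on the log2 scale (SE 0.68, 95% interval -3.53 to -0.67, edgeR adjusted p = 0.0318). With the counts this low the call was close to its threshold and was lost without RS Ago413+/+ replicate 2 (-1.89, adjusted p = 0.0682) and without RS Ago413-/- replicate 2 (-1.80, adjusted p = 0.0647), replicate 3 (-2.14, adjusted p = 0.0769) or replicate 4 (-2.13, adjusted p = 0.0656). It was lost as well in a fit with a term for library numbers above 60 (-1.99, adjusted p = 0.0522). let-7d-3p was at -0.65 (SE 0.35, 95% interval -1.39 to 0.093, adjusted p = 0.201) and let-7a-1/c-2-3p at -0.21 (SE 0.26, adjusted p = 0.574), neither called.

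The library numbers in the labels, whose meaning they do not give, divided the RS Ago413+/+ libraries. Under 60, let-7b-3p was 42.7 to 45.6 CPM in Ago413+/+ and 0 to 9.97 CPM in Ago413-/-, and above 60 it was 10.2 to 15.6 and 6.45 to 6.46 CPM, with 2 libraries in each. let-7d-3p was 775 to 1106 CPM in Ago413+/+ and 303 to 427 CPM in Ago413-/- under 60, and 350 to 582 and 408 to 489 CPM above 60. The measured values of let-7b-3p were thus lower in Ago413-/- on both sides, and those of let-7d-3p under 60 alone. Above 60 the let-7b-3p values rest on 3 and 13 counts in Ago413+/+ and 5 and 3 in Ago413-/-. These are too few to establish a difference on that side.

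Some markers of other cell types were called in this comparison. In RS Ago413-/- against RS Ago413+/+, 3 of 3 tested blood miRNAs of a list of 4 were called higher (miR-451a, miR-486a-5p and miR-223-3p), as were 1 of 3 peritubular and mesenchymal markers (miR-199a-3p) and 1 of 2 endothelial markers (miR-126a-3p). The other peritubular and mesenchymal markers were at -0.14 (miR-143-3p) and -1.74 (miR-145a-5p) on the log2 scale, and neither was called. None of 3 spermatogonial and none of 5 meiotic and later germ cell markers reached the fold threshold. Their log2 fold changes ran from -0.42 to 0.85 and from -0.91 to 0.98. The lowest edgeR adjusted p was nevertheless under 0.05 in both lists, at 0.0306 and 0.0110. The endothelial markers summed to 511 to 1988 CPM in RS Ago413+/+, 857 to 1158 in RS Ago413+/- and 1949 to 5852 in RS Ago413-/-. The blood markers summed to 51.5 to 501, 187 to 1168 and 122 to 4840 CPM, and the peritubular and mesenchymal markers to 2646 to 10276, 3179 to 7387 and 6078 to 7506 CPM. No marker of these lists was at 0 in all libraries of a round spermatid group, and their part in the let-7b-3p result was not tested.

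The heterozygous round spermatids gave no call. Between Ago413+/- and Ago413+/+ no member and none of the 426 miRNAs was called by edgeR (0%; 68 had an unadjusted p under 0.05, and DESeq2 called 8). let-7d-3p was at -0.81 (SE 0.35, unadjusted p = 0.0353, adjusted p = 0.310) and let-7b-3p at -0.99 (adjusted p = 0.433). Between Ago413-/- and Ago413+/- no member was called (12.4% of all), with let-7b-3p at -1.11 (SE 0.73, adjusted p = 0.314), let-7a-1/c-2-3p at -0.25 (adjusted p = 0.533) and let-7d-3p at 0.16 (adjusted p = 0.785).

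The cell types were also compared within each genotype over all libraries in one fit. SP and RS libraries of the same genotype and replicate had consecutive library numbers in 11 of 12 cases, and they may come from the same pool of mice, which the labels do not say. Between RS and SP no member was called in Ago413+/+ (0% of 450; 10 at an unadjusted p under 0.05, DESeq2 0), in Ago413+/- (0%; 15 at an unadjusted p under 0.05, DESeq2 0) or in Ago413-/- (4.89%, and 0.223% without both libraries that stood apart). In Ago413+/+ the log2 fold changes were 0.57 for let-7d-3p, 1.01 for let-7b-3p, -0.61 for let-7f-2-3p and -0.03 for let-7a-1/c-2-3p (edgeR adjusted p = 0.996 for each). The difference between the cell types in the Ago413-/- effect was itself tested, and no member was called (0% of 450; 55 at an unadjusted p under 0.05, DESeq2 0). The difference was -1.06 for let-7d-3p (SE 0.65, unadjusted p = 0.115) and 1.79 for let-7f-2-3p (unadjusted p = 0.0855), with edgeR adjusted p from 0.416 to 0.765 over the members.

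The ratio of the 3p to the 5p strand within a library needs no scaling between libraries. It was tested with limma on log2((3p count + 0.5)/(5p count + 0.5)) over all hairpins with at least 50 counts of both arms in every library of the fit, 116 in spermatocytes and 157 in round spermatids, and a ratio was called at an adjusted p under 0.05. All 10 member names passed this filter, with the shared strand under both of its names. Only let-7d-3p, with at least 71 counts in every library, would have passed without its 5p strand.

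Among round spermatids the let-7b arm ratio was lowest in Ago413-/-. let-7b-3p was 1.17%, 0.833%, 0.452% and 0.885% of both arms in RS Ago413+/+ (mean 0.836% ± 0.296, SD, n = 4) and 0.205%, 0.758%, 0.806% and 1.03% in RS Ago413+/- (mean 0.701% ± 0.352). It was 0.204%, 0, 0.148% and 0.166% in RS Ago413-/- (mean 0.130% ± 0.0895), where the 0 is of 961 counts of both arms and allows up to 0.312%. The measured shares of RS Ago413-/- lay below those of RS Ago413+/+, while against RS Ago413+/- they met, at 0.204% and at 0.205% from a single count, so that separation from Ago413+/- is not established at this depth.

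Between RS Ago413-/- and RS Ago413+/+ the let-7b ratio fell by 2.61 on the log2 scale (SE 0.58, 95% interval -3.81 to -1.41, limma adjusted p = 0.00479), and 12.7% of all hairpins were called. This call held without each of the 8 compared libraries in turn (log2 difference -2.84 to -2.14, adjusted p 0.00566 to 0.0198). Between RS Ago413-/- and RS Ago413+/- it fell by 2.33 (SE 0.58, 95% interval -3.53 to -1.13, adjusted p = 0.0136), where 7.01% of all hairpins were called. The second call was lost without RS Ago413+/- replicate 3 (-2.22, adjusted p = 0.0509) or replicate 4 (-2.11, adjusted p = 0.0721) and without RS Ago413-/- replicate 2 (-1.86, adjusted p = 0.0663). The partner let-7b-5p was 3255 ± 1653, 1850 ± 737 and 3946 ± 938 CPM in RS Ago413+/+, Ago413+/- and Ago413-/- (SD, n = 4 each), and its own log2 fold change was 0.41 (edgeR adjusted p = 0.428) against Ago413+/+ and 1.18 (adjusted p = 0.0380) against Ago413+/-.

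**Figure D3:**
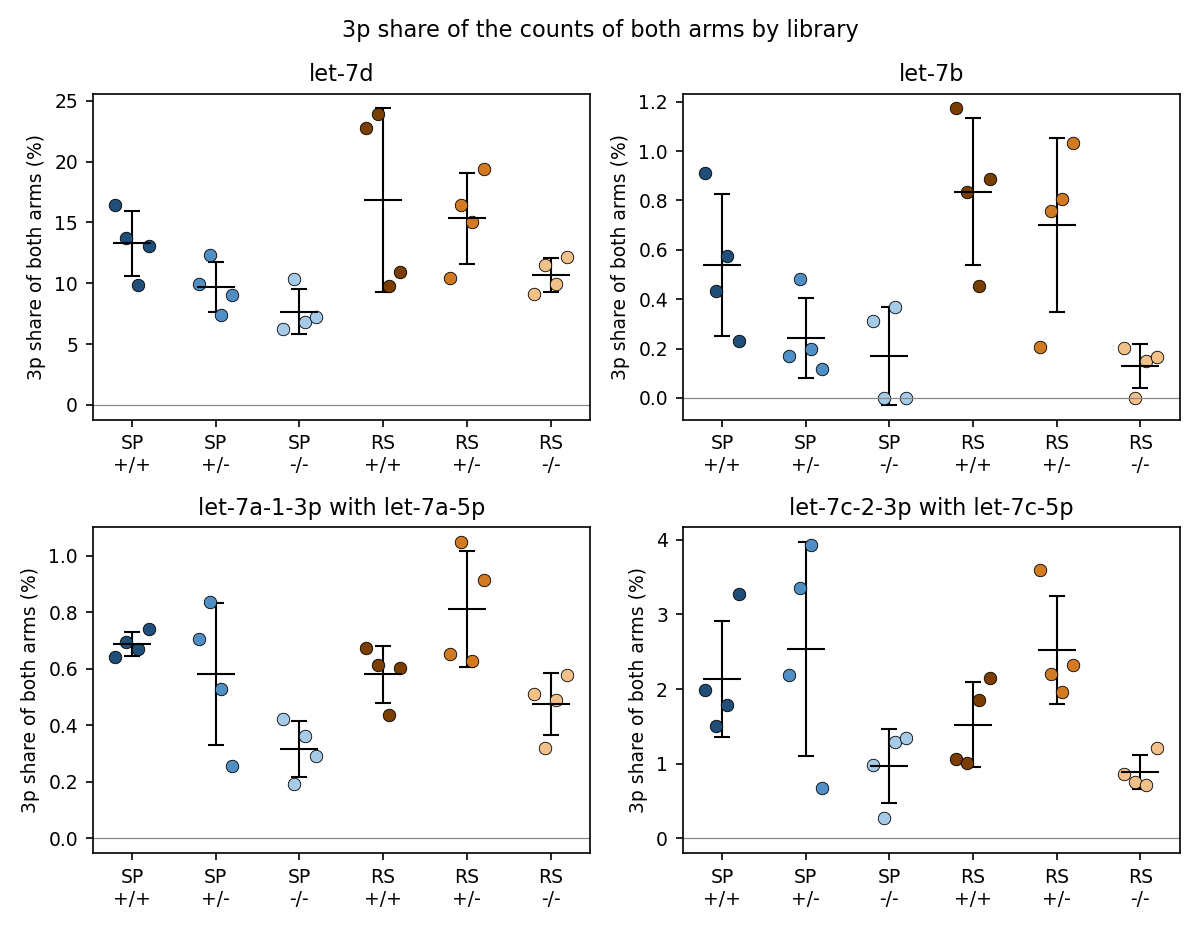
Share of the 3p strand in the counts of both arms (percent) in each library (points), with the group mean and SD (lines), for let-7d, let-7b, and let-7a-1/c-2-3p set against let-7a-5p and against let-7c-5p. The let-7b share is 0 to 0.204% in RS Ago413-/- and 0.452% to 1.17% in RS Ago413+/+.

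The shared strand of let-7a-1 and let-7c-2, the second made from the same host transcript as let-7b, was also low beside let-7c-5p in RS Ago413-/-. It was 0.858%, 0.756%, 0.711% and 1.21% of the counts of both strands in RS Ago413-/- (mean 0.884% ± 0.226, SD, n = 4), and 3.59%, 2.20%, 1.96% and 2.33% in RS Ago413+/- (mean 2.52% ± 0.727), without overlap. RS Ago413+/+ libraries had 1.06%, 1.01%, 1.86% and 2.15% (mean 1.52% ± 0.572) and overlapped with RS Ago413-/-. The log2 difference of the ratio was -1.52 (SE 0.32, 95% interval -2.19 to -0.86, limma adjusted p = 0.00540) against Ago413+/-, called also without each library in turn (-1.68 to -1.33, adjusted p 0.00335 to 0.0266), and -0.74 (SE 0.32, adjusted p = 0.128) against Ago413+/+, which was not called.

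Of the strands in this ratio the 5p strand was called on its own. let-7c-5p was 5560 CPM on average in RS Ago413+/- and 12086 CPM in RS Ago413-/-, a log2 fold change of 1.21 (SE 0.27, edgeR adjusted p = 0.00817), while the 3p strand was at 134 and 107 CPM. Beside let-7a-5p the same 3p strand was 0.811% ± 0.206 in RS Ago413+/- and 0.475% ± 0.110 in RS Ago413-/- (log2 difference -0.77, SE 0.29, adjusted p = 0.137). Set against the sum of let-7a-5p and let-7c-5p, an analysis added after the data were seen, it was 0.478% to 0.716% and 0.226% to 0.393%. The log2 difference was -0.98 (SE 0.27, limma adjusted p = 0.0311), and 11 of 155 hairpins were called in that fit.

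Other let-7 5p strands were called in this comparison too. Of the 8 5p strands, 3 were called higher in RS Ago413-/- than in RS Ago413+/- and none lower, where 12.4% of the 426 miRNAs tested were called, 22 higher and 31 lower (let-7b-5p, let-7c-5p and let-7e-5p, the last by 1.23 with an edgeR adjusted p of 0.0124), and their median log2 fold change was 0.86. Against RS Ago413+/+ none of the 8 reached the fold threshold, with a median of 0.45, although let-7i-5p (0.81, adjusted p = 0.0111) and let-7f-5p (0.66, adjusted p = 0.0442) had an adjusted p under 0.05. Among the 12 other miRNAs fixed as neighbours in the let-7 clusters, of which 9 were tested in round spermatids, 2 were called, miR-98-5p and miR-99a-5p, both higher in RS Ago413-/- than in RS Ago413+/-. The markers miR-199a-3p and miR-126a-3p were called higher in the same comparison, but not miR-143-3p (log2 fold change 0.13) or miR-145a-5p (-1.01) of the peritubular and mesenchymal list, nor any of the 3 blood markers tested, and their part in the arm ratios was not tested. The comparisons of RS Ago413-/- with the other genotypes share their Ago413-/- libraries.

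let-7d had the most evenly filled arms and the ratio measured best. let-7d-3p was 16.4%, 13.7%, 9.88% and 13.0% of both arms in SP Ago413+/+ (mean 13.3% ± 2.69, SD, n = 4), 9.95%, 12.3%, 7.36% and 9.05% in SP Ago413+/- (mean 9.66% ± 2.05) and 6.25%, 10.4%, 6.80% and 7.20% in SP Ago413-/- (mean 7.66% ± 1.86). The SP Ago413+/+ and SP Ago413-/- libraries overlapped through the Ago413-/- library that stood apart, at 10.4%. The log2 difference of the ratio was -0.89 (SE 0.36, limma adjusted p = 0.169). Without both libraries that stood apart it was -1.06 (adjusted p = 0.0370), which was called, as were 8 of 139 hairpins in that fit.

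In round spermatids the let-7d share was 22.8%, 23.9%, 9.77% and 10.9% in Ago413+/+ (mean 16.8% ± 7.53, SD, n = 4), 10.5%, 16.4%, 15.1% and 19.4% in Ago413+/- (mean 15.3% ± 3.72) and 9.14%, 11.5%, 9.96% and 12.2% in Ago413-/- (mean 10.7% ± 1.39). The Ago413+/+ libraries fell into a high and a low pair, with library numbers under and above 60, and the low pair lay within the Ago413-/- range. The log2 difference between Ago413-/- and Ago413+/+ was -0.65 (SE 0.33, limma adjusted p = 0.204) and between Ago413-/- and Ago413+/- -0.57 (adjusted p = 0.393).

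**Figure D4:**
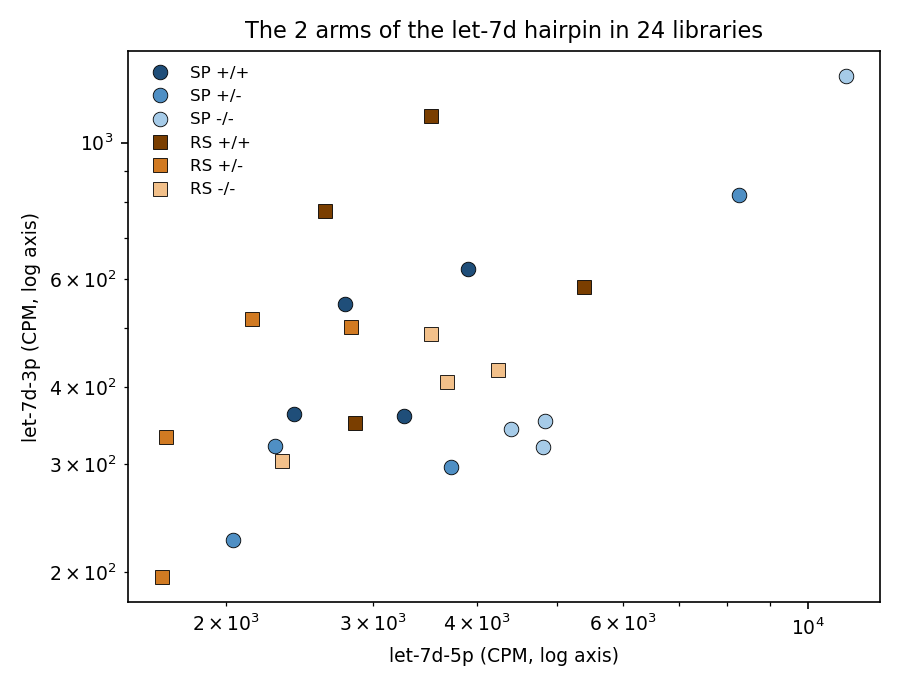
let-7d-3p against let-7d-5p in CPM in each of 24 libraries, both on log axes, coloured by group. The highest values of both arms belong to SP Ago413-/- replicate 2, and the other SP Ago413-/- libraries have 320 to 352 CPM of let-7d-3p.

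In spermatocytes no arm ratio of a member was called between Ago413-/- and Ago413+/+ (0% of 116 hairpins; 27 had an unadjusted p under 0.05). The let-7a-1 ratio was the tightest of them in SP Ago413+/+, at 0.644%, 0.696%, 0.672% and 0.742% (mean 0.688% ± 0.0418, SD, n = 4), and was 0.421%, 0.192%, 0.361% and 0.291% in SP Ago413-/- (mean 0.316% ± 0.0984). These groups did not overlap, and the log2 difference was -1.17 (SE 0.43, limma adjusted p = 0.127), or -0.95 (adjusted p = 0.0536) without both libraries that stood apart. let-7f-2 was at -2.10 (SE 0.78, adjusted p = 0.127), let-7b at -2.08 (SE 0.87, adjusted p = 0.169) and let-7c-2 at -1.31 (SE 0.60, adjusted p = 0.191). Without both libraries that stood apart these were -1.74, -1.13 and -0.77, with limma adjusted p from 0.0599 to 0.317.

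None of the 8 5p strands was called in the same comparison by edgeR, with a median log2 fold change of 1.09, a range of -0.19 to 1.64 and adjusted p of at least 0.0959. The median was 0.47 without both libraries that stood apart, one of which, SP Ago413-/- replicate 2, had let-7c-5p at 57035 CPM, and again none was called (adjusted p of at least 0.0781). Between SP Ago413-/- and SP Ago413+/- no member was called (0.862% of hairpins), with let-7c-2 at -1.36 (adjusted p = 0.240) and let-7f-2 at -1.70 (adjusted p = 0.261). Without both libraries that stood apart let-7c-2 (-1.38, limma adjusted p = 0.0235) and let-7f-2 (-2.17, adjusted p = 0.0272) were called, where 17 of 139 hairpins were called. The same pair was called without SP Ago413+/- replicate 4 alone (-1.92 and -2.53, adjusted p = 0.0279 and 0.0241), where 14 of 116 hairpins were called. Between Ago413+/- and Ago413+/+ no arm ratio was called in spermatocytes (0%; 2 hairpins at an unadjusted p under 0.05) or in round spermatids (0%; 18 at an unadjusted p under 0.05), nor between RS and SP in Ago413+/+ (0% of 115; 2 at an unadjusted p under 0.05).

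**Figure D5:**
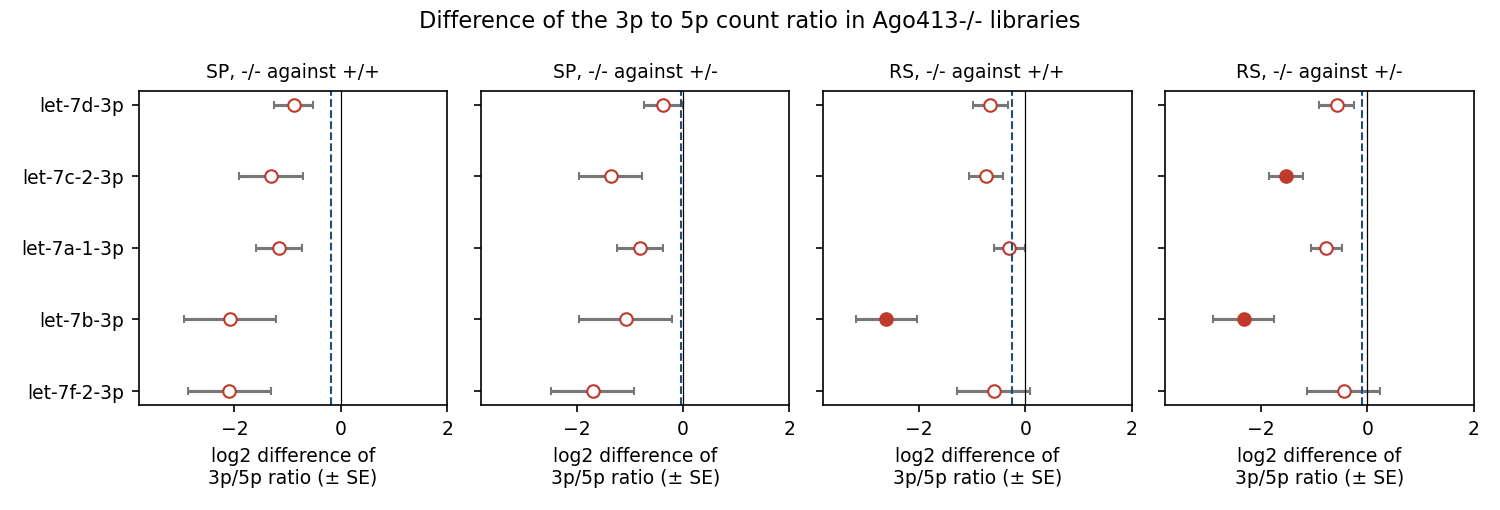
Log2 difference of the 3p to 5p count ratio between Ago413-/- and the other genotypes for the 5 let-7 3p names with the most counts, with SE. let-7a-1 and let-7c-2 are the same 3p reads set against let-7a-5p and let-7c-5p. Filled points were called, open points were not, and the dashed line is the median of all hairpins tested; let-7b in both round spermatid comparisons and let-7c-2 in one are filled.

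Over the family as a whole, 8 strands could be counted once the shared strand was taken a single time, against the sum of let-7a-5p and let-7c-5p, and let-7g-3p, with no count in spermatocytes, was left out; this tally was chosen after the data were seen. In spermatocytes the arm ratio was lower in Ago413-/- than in Ago413+/+ for 8 of 8 strands, beside 53.9% of 115 hairpins, with a median log2 difference of -1.45 beside -0.17. Without both libraries that stood apart it was lower for 7 of 8, with a median of -0.98 beside -0.14. In round spermatids it was lower for 7 of 8, beside 58.97% of 156 hairpins, with a median of -0.50 beside -0.25. The let-7g ratio, left out of the tally, was the only member ratio that was higher in SP Ago413-/- than in SP Ago413+/+. It was at 1.53 (SE 0.54, limma adjusted p = 0.126), and with no 3p count it was set by the pseudocount and the 5p counts. Among hairpins with a more abundant 5p arm, as in let-7, 60.3% of 73 were lower in spermatocytes, with a median of -0.23. In round spermatids 65.3% of 98 such hairpins were lower, with a median of -0.33. Both sets hold the shared strand under each of its names. The let-7 strands themselves are included in these sets and in the 115 and 156 hairpins. The tallied strands are not separate observations. let-7f-1-3p and let-7f-2-3p share the partner let-7f-5p, and let-7c-1-3p and the shared strand share let-7c-5p. The tally also includes let-7e-3p, let-7f-1-3p, let-7c-1-3p and let-7i-3p, whose depth gave no usable comparison of levels. The size of the let-7 medians rests on the pseudocount, since most members had few 3p counts. With a pseudocount of 5 in place of 0.5 the spermatocyte median was -0.45 with 6 of 8 lower, beside -0.043 for all hairpins, and -0.13 with 5 of 8 lower without both libraries, while the round spermatid median was -0.38 with 8 of 8 lower, beside -0.23.

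The levels of the strands followed those of their partners to a different degree. Over 24 libraries the Pearson correlation of log2 CPM between the arms was 0.60 for let-7d, 0.38 for let-7a-1, 0.05 for let-7b, 0.03 for let-7c-2 and -0.43 for let-7f-2, a description of libraries that share their scaling and, for let-7b-3p and let-7f-2-3p, rest on few counts. The miRNAs outside the let-7 names whose levels were most like those of let-7d-3p, of 450 compared over 24 libraries, were miR-871-3p (r = 0.83), miR-151-3p (0.81), miR-760-3p (0.80), miR-1981-3p (0.80) and miR-423-3p (0.79). All of these are 3p strands, but so were the miRNAs most like let-7b-3p and let-7f-2-3p, while those most like let-7a-1/c-2-3p included 5p strands. The share of 3p strands among the 450 was not counted, and the correlations include both libraries that stood apart.

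Of the relatives outside the member list 3 were as low as the rarer members. miR-98-3p, which has the UAUACAA seed, had 0 to 13 counts a library, let-7a-2-3p had 0 to 4 and let-7k had 0 to 5, while let-7j had 36 to 350.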

How the data were processed

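Mature mouse miRNAs were counted in 24 small RNA libraries (NEBNext kit, 100 ng of total RNA). Per the labels and methods, the authors trimmed reads with Trim Galore, discarded those under 10 nucleotides and counted them against miRBase mature sequences with the miRDeep2 scripts. The deposited values are raw counts, not normalized, in 1978 rows, of which 754 have no count. No read identifiers were used, and the limits given for 0 cover counting error only. Groups came from the sample titles.

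edgeR 4.0.16 (quasi-likelihood, TMM; R 4.3.3) was fitted to the 12 libraries of a cell type, or to all 24 for contrasts between cell types, on miRNAs that reached 10 counts in 3 or more libraries. Arm ratios were tested with limma 3.58.1 (pseudocount 0.5, variance trend on the rarer arm). p-values were adjusted over all miRNAs or hairpins tested, and 95% intervals use the degrees of freedom of each test. The scripts were tested on simulated data. DESeq2 1.42.0, other filters and scalings, other pseudocounts, a replicate block, a term for library numbers above 60 and leaving out libraries were alternatives.

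Named miRNAs are the 10 members, their 5p partners, miR-98 and let-7a-2, let-7j and let-7k as relatives, marker and cluster lists, and the 5 miRNAs most like let-7d-3p. The members and lists were chosen with earlier results of these data known. Sequences are from RefSeq (GRCm38.p6), and host genes from the GENCODE annotation of that build.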

Additional observations from a re-analysis of the deposited data

Results flagged for a closer look

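let-7d-3p was far from the rest of its group in a pair of spermatocyte libraries. It was 823 CPM in SP Ago413+/- replicate 4, where the others of the group had 225 to 321 CPM, and 1285 CPM in SP Ago413-/- replicate 2, where the others had 320 to 352 CPM. In each case the gap to the nearest library was too large a part of the group's range by Dixon's criterion. Of 48 groups of values examined 2 gave such a library, and chance gives about 1 in 20, or 2.4. These are the libraries in which miR-34c-5p was lowest, 31645 and 16100 CPM, and let-7c-5p highest, 22975 and 57035 CPM, and the cause was not tested.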

How the results depend on the processing

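For 60 results 1044 alternatives were run, and 1002 left the result the same. For the 43 results on a named strand, this means the same direction and side of the threshold. For the 17 counts of members called, it means an equal or similar count, whichever members were called. The let-7b-3p call in round spermatids (Ago413-/- against Ago413+/+, 1 member called) became 0 with at least 10 counts in every library, where let-7b-3p was not tested, and 0 with a term for library numbers above 60 (-1.99, adjusted p = 0.0522). Whether replicate numbers pair the libraries was not settled. No comparison had every same-number correlation over 0.1, the lowest being -0.33, and 0 to 3 of 4 libraries correlated best with their own number. Between RS and SP in Ago413+/+ it was 3 of 4, with same-number correlations from -0.19 to 0.36, so these values do not decide the pairing there. With the replicate number as a block, shared over genotypes, the let-7b-3p call in round spermatids was lost (-1.99, edgeR adjusted p = 0.0862). The block changed no other call of a member. Leaving out 1 library gave 0 to 1.

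Without both spermatocyte libraries that stood apart, chosen after the data were seen, SP Ago413-/- against Ago413+/- gave 1 member called for 0, and 0 to 1 with 1 library left out. The arm ratios then gave 1 for 0 against Ago413+/+, and 2 for 0 against Ago413+/-, the latter 0 to 2 with 1 library left out. In round spermatids, hairpins with at least 500 counts gave 0 arm ratios for 1 against Ago413+/+ and 1 for 2 against Ago413+/-, since let-7b was no longer tested, and leaving out 1 library gave 1 to 2 for the latter.

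Directions turned for let-7d-3p in SP Ago413-/- against Ago413+/+ (0.28; -0.010 with library totals, -0.48 without both libraries, -0.50 to 0.44 with 1 left out) and against Ago413+/- (0.43; -0.37 to 0.97), and in RS Ago413-/- against Ago413+/- (0.16; -0.073 with library totals, -0.051 to 0.30). They also turned for let-7a-1/c-2-3p between cell types in Ago413+/+ (-0.03; -0.17 to 0.073) and the let-7f-2 arm ratio in RS Ago413-/- against Ago413+/- (-0.92 to 0.086). None of these was called, and the cause was not tested.

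Counts over all miRNAs moved most in spermatocytes. Against Ago413+/+, 18 became 61 with DESeq2, 55 with no filter and 37 without both libraries. Against Ago413+/-, 9 became 57, 40 and 64, and 4 with only those genotypes in the fit. In round spermatids, at least 10 counts in every library gave 42 for 69 and 35 for 53, and DESeq2 and no filter gave 8 each for 0 in Ago413+/- against Ago413+/+. Between cell types in Ago413-/-, 22 became 37 with DESeq2, 43 with no filter, 13 with the block and 1 without both libraries. Arm ratios at 500 counts gave 9 for 20 and 7 for 11, and without both libraries 8 for 0 and 17 for 1 in spermatocytes. Depth limits let-7b-3p and let-7f-2-3p, with 0 to 50 and 0 to 16 counts a library, and leaves the 5 rarer strands without a usable comparison.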
